A study of Mus musculus with 4 samples.

Results

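The promoter intervals whose accessibility differed after treatment with a cholesterol-removing agent were examined in RAW macrophages, a mouse macrophage-like cell line. Of the 3812 intervals in the authors' deposited table of differential accessibility, 381 (9.99%) lay within 3 kb of a transcription start site (TSS) of a transcript with an Entrez identifier in GENCODE release M21 for the mouse (GRCm38). Distance was taken from the nearest edge of the interval, so that an interval covering a TSS had a distance of 0 bp. An interval was called gained where the authors' mean for treated cells was above their mean for control cells, and lost where it was below. By this sign, 301 promoter intervals were gained and 80 were lost.

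The study compared 2 control samples, grown in DMEM with serum and given no treatment, with 2 samples treated with 5 mM methyl-β-cyclodextrin (MCD) in the presence of BSA for 1 hr. By this description the medium differed along with MCD, and their effects cannot be told apart. The study's general culture methods name water in BSA medium as the negative control, while its ATAC-seq methods call the control untreated. MCD is a cyclic sugar that draws cholesterol out of membranes. The labels name no genotype, no passage and no separate culture for the replicates. Accessibility was measured by ATAC-seq, in which the Tn5 transposase cuts open chromatin and more reads at a site stand for more cutting there. The table used here gives 1 mean of normalized reads per condition and interval on the log2 scale, with no value per sample. The spread between replicates and the number of reads counted in each sample could therefore not be given, no difference could be tested against replicate error, and the values below describe these condition means. In bulk cells, fewer cells with an open site and less opening per cell cannot be told apart.

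A promoter is the stretch of DNA around a TSS where RNA polymerase and the general transcription factors assemble. Many mouse promoters lie in CpG islands, which are rich in G and C, hold binding sites for SP and KLF factors (GC boxes) and are kept open in most cell types. Promoters of genes used in few cell types are more often poor in CpG. In macrophages, PU.1 and C/EBP factors open the sites that define the cell type, while AP-1 and NF-κB are the factors that inflammatory signals bring to DNA within minutes.

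Of 9 macrophage marker genes, 5 had an interval somewhere in the table, and 2 of them, Lyz2 (lysozyme) and Fcgr1 (a high-affinity IgG receptor), had a lost promoter interval. Of the markers of other cell types, Cd4 alone of 5 T cell genes had an interval, and B cell, fibroblast and epithelial genes (4 each) had none. Since the table lists differential intervals alone, an open marker gene that did not change would not appear in it, and the label could not be checked further.

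The reference sequences of 8 promoter intervals are shown because they hold motifs counted below, at genes that lead the gained or lost intervals or belong to the listed gene groups. Each is 201 bases of GRCm38, printed 5′ to 3′ on the plus strand. Capitals mark the matches to the motif named for that interval on either strand, and a match is a description of the letters and not evidence of binding. The first 3 are gained intervals with κB motifs (NF-κB). They lie at Nfkb1 (chr3:135670605-135670805, in an intron, 2806 bp upstream of an internal TSS), Tnfrsf9 (chr4:150922399-150922599, in an intron, 2209 bp downstream of a TSS) and Il1f6 (chr2:24215026-24215226, intergenic, 192 bp upstream). At Tnfrsf9, the 2 matches overlap in a single stretch, which reads as a κB motif on either strand.
Nfkb1, κB: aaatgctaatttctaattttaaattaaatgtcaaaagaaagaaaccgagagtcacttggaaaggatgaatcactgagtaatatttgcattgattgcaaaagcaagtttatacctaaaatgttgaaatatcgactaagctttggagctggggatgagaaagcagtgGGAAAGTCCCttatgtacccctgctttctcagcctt
Tnfrsf9, κB: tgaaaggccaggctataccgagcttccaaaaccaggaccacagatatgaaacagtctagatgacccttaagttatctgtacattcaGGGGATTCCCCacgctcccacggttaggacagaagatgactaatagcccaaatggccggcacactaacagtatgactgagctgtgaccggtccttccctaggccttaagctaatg
Il1f6, κB: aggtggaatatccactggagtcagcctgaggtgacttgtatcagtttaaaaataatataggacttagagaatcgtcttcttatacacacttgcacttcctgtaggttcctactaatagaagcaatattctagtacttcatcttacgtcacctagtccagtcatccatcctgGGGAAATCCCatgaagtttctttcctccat

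The next 2 are gained intervals with AP-1 motifs (TGACTCA, or TGAGTCA when read on the other strand). They lie at Dusp2 (chr2:127333363-127333563, intergenic, 2596 bp upstream) and Ccl5 (chr11:83528050-83528250, in an intron, 2268 bp downstream). The Ccl5 interval is largely a short tandem repeat, in which reads are harder to place.
Dusp2, AP-1: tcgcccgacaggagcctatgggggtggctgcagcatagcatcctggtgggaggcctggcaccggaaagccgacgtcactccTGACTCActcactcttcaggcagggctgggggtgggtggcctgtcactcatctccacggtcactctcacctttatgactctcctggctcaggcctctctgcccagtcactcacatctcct
Ccl5, AP-1: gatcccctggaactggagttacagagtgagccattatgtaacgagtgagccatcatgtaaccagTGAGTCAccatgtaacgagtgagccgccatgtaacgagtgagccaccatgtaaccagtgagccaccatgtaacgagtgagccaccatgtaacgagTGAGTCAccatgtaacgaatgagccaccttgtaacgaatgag

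The next is a gained, CpG-rich interval near a start site, with GC boxes (GGGCGGG, or CCCGCCC when read on the other strand) at Arc (chr15:74672629-74672829, intergenic, 59 bp upstream).
Arc, GC box: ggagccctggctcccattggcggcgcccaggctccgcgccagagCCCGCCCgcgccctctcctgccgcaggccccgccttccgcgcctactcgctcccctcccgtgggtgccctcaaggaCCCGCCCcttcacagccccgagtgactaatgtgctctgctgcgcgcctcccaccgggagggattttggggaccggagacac

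The last 2 are lost intervals, with PU.1 motifs (GAGGAAGT) at Actb (chr5:142909274-142909474, intergenic, 2520 bp upstream) and with the core of the interferon-stimulated response element (ISRE), the site of IRF factors, at P2ry12 (chr3:59228860-59229060, in an intron, 1279 bp upstream of a TSS).
Actb, PU.1: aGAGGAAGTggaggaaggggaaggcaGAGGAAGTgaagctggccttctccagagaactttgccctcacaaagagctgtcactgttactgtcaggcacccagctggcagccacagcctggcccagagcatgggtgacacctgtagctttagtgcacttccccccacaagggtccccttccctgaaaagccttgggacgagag
P2ry12, ISRE core: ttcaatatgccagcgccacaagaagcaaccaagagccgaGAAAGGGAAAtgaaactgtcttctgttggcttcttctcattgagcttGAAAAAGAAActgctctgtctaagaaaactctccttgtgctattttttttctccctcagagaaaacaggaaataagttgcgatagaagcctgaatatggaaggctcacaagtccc

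Promoter intervals were gained in 79% of cases, against 73.2% of all 3812 intervals of the table and 72.5% of the distal ones, which lie beyond 3 kb. Lost intervals made up 21% of the promoter intervals and 26.8% of the table. Seen the other way, 10.8% of all gained intervals and 7.83% of all lost intervals were at promoters.

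The condition means differed by at least 1 on the log2 scale, a factor of 2, in 233 of the 381 promoter intervals (61.2%) and in 69.8% of the table. This size was reached by 200 gained promoter intervals (52.5% of the promoter intervals, against 57.3% in the table) and by 33 lost ones (8.66%, against 12.5%). Promoter intervals thus held a larger share of gained intervals than the table as a whole, and a smaller share of intervals with large differences in either direction. These shares do not take the control level into account.

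All intervals have the same width, so their read means can be set side by side. Gained promoter intervals rose from a median of 41.9 normalized reads in control (middle 50%, 20.4 to 76.8) to 99.8 in MCD (66.1 to 152). Their median difference was 1.24 on the log2 scale (0.88 to 1.68), or 2.35-fold. Lost promoter intervals went from 135 reads in control (103 to 198) to 69.2 in MCD (48.3 to 107), a median difference of -0.89 (-1.10 to -0.68), or 1.86-fold lower. Lost promoter intervals therefore started at a higher level than gained ones, and changed less. The order of the control levels is partly set by the definition, since control is the higher mean in lost intervals and the lower one in gained intervals. In a table of differential intervals alone, a site with few control reads also has little room to be lost.

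The same order was seen away from promoters, at lower levels. Distal gained intervals had a median of 27.6 reads in control and 76.3 in MCD, with a median difference of 1.42. Distal lost intervals had medians of 112 and 56.3 reads and a difference of -0.98.

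A minority of gained promoter intervals had very few reads in control. The control mean was under 16 reads in 52 of the 301 (17.3%), in 30.0% of the distal gained intervals and in none of the lost promoter intervals. In lost intervals control is the higher mean by definition. The gained intervals under 16 reads differed by a median of 1.92, the 159 between 16 and 64 reads by 1.34, and the 90 above that by 0.77. Distal gained intervals in the same ranges had close medians, at 1.98, 1.34 and 0.83. Control level and difference had a Pearson r of -0.87 over the 301 gained and 0.73 over the 80 lost intervals. The points share the control mean, which enters both measures, and the table keeps differential intervals alone, in which a low mean needs a large difference. Distal intervals had nearly the same values (r = -0.86 over 2489 gained and 0.75 over 942 lost), so the relation belonged to the table as a whole.

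**Figure D1:**
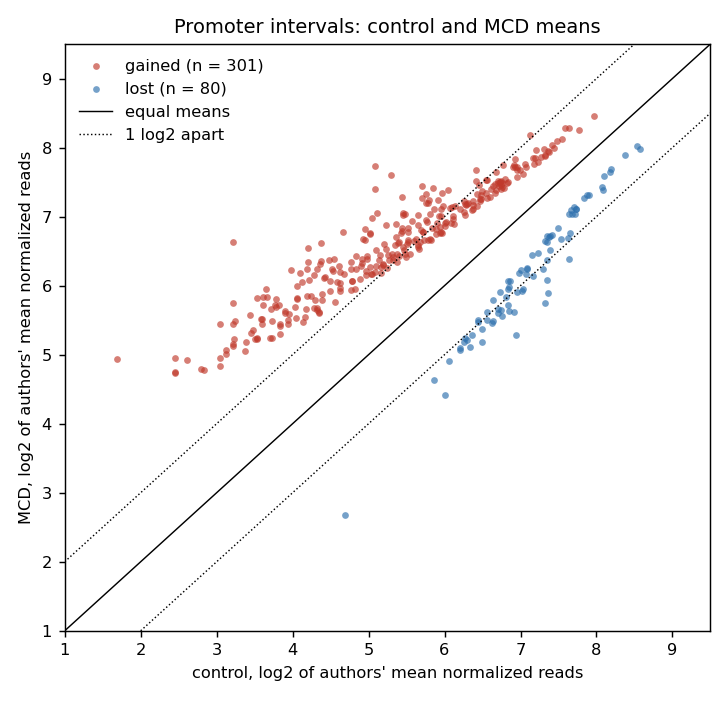
Each point is 1 promoter interval, with the authors' control mean on the x axis and their MCD mean on the y axis, both as log2 of normalized reads. Red points are the 301 gained and blue points the 80 lost intervals, the solid line marks equal means and the dotted lines a difference of 1, and the gained points move toward the solid line as the control mean rises.

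Among the 12 gained promoter intervals with the largest differences were those of the chemokine genes Cxcl2 and Ccl4 and of the NF-κB gene Nfkb1. The largest, with a log2 difference of 3.41, was at Cxcl2, a neutrophil chemokine, where the mean rose from 9.27 to 98.8 reads in an intergenic interval 2511 bp downstream of the TSS. The interval with the second largest difference was upstream of Ece1, an endothelin-converting enzyme, with 3.21 reads in control and 30.6 in MCD (3.25). Both started under 16 reads and ended near or below the gained median in MCD.

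The third, in Nfkb1, rose from 34.1 to 212 reads (2.64), and so ended well above that median. Nfkb1 encodes p105, the precursor of the NF-κB subunit p50. The interval holds 1 κB motif, the one in capitals in its sequence above. Ccl4, a macrophage chemokine, behaved alike, with 39.1 and 194 reads (2.31) in an intronic interval 137 bp downstream of its TSS.

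Cytokine biology was also represented by Il2rb, the β chain of the IL-2 and IL-15 receptors, and Il1f6, which encodes the cytokine IL-36α. At Il2rb an interval over the TSS rose from 6.10 to 30.5 reads (2.32). At Il1f6 the interval shown above rose from 11.5 to 56.4 reads (2.29). Both remained below the median MCD level of gained promoter intervals.

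The other 6 were at Ocstamp, which acts in the fusion of osteoclasts and macrophages, Pate1 and Astl, known from the reproductive tract and the egg, Ephx3 (an epoxide hydrolase), Eid2 (an inhibitor of the coactivator EP300) and Zfp811 (a zinc finger protein). Their differences ran from 2.30 at Zfp811, with 12.6 and 62.1 reads, to 2.53 at Pate1, with 9.27 and 53.6. Astl reached the highest MCD mean of these 6, at 169 reads from 34.1 in control, in an intronic interval 770 bp downstream. The nearest TSS names the gene and does not show that the interval acts on it.

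The 8 lost promoter intervals with the largest differences included 4 that covered a TSS or lay within 20 bp of one. At Siglech, a sialic acid-binding receptor of plasmacytoid dendritic cells and microglia, the interval over the TSS fell from 123 to 38.9 reads (-1.66). At Il16, which encodes a chemoattractant cytokine, it fell from 64.2 to 21.2 (-1.59). At Angpt4, an angiopoietin, it fell from 89.9 to 36.3 (-1.31), and at Ang, which encodes the ribonuclease angiogenin, an interval 19 bp upstream fell from 163 to 67.9 (-1.27). All 4 kept reads in MCD.

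The largest of the lost differences was at Mir1a-1, a microRNA gene known from muscle, with 25.9 and 6.40 reads (-2.02). It was the lost promoter interval with the lowest level in both conditions. The remaining 3 were at Olfr211, an olfactory receptor gene, with 159 and 53.9 reads (-1.56), at Grxcr1, a gene of inner ear hair cells, with 165 and 59.7 (-1.46), and at Nrbf2, a partner of the autophagy lipid kinase complex, with 121 and 49.0 (-1.30). These 3 lay from 1600 to 2562 bp from a TSS.

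At the other end of the scale were intervals that were open in control. The 5 gained intervals with the highest control means were at Dusp2 (251 to 351 reads), Zfas1 (218 to 306), Sil1 (199 to 310), Kctd11 (192 to 313) and Gnb1 (187 to 280). Their differences ran from 0.49 to 0.70, all under 1. Dusp2 is a phosphatase that switches off MAP kinases, Zfas1 a snoRNA host gene, Sil1 a cofactor of the chaperone BiP and Gnb1 a G protein β subunit, and all but that of Kctd11 covered a TSS.

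The 5 lost intervals with the highest control means were at BC031181 (381 to 252 reads), 0610039K10Rik (370 to 261), Cst3 (332 to 237), Pik3cg (292 to 206) and Traf3ip3 (291 to 200). Their differences lay between -0.59 and -0.49. Cst3 encodes the protease inhibitor cystatin C and Pik3cg the catalytic subunit of the leukocyte lipid kinase PI3Kγ. The 1 distal interval of Pik3cg was gained (1.34), while 3 at Cst3 and 1 at 0610039K10Rik were lost. The intervals at Pik3cg and Traf3ip3 cover the TSS and hold a PU.1 motif.

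By nearest TSS, the 381 intervals belonged to 365 genes. A gained promoter interval was found at 290 genes and a lost one at 77. Of the intervals, 361 were at protein-coding genes and 20 at genes of other types. In 20 intervals, 15 gained and 5 lost, the TSS of at least 1 further gene also lay within 3 kb, so that the choice of gene there was open. The promoter intervals lay on 20 chromosomes, with 2 on the X.

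Among 11 lists of genes, 37 of 712 listed genes had a promoter interval, and these had 44 intervals. The annotation as a whole had 365 genes with one and 42193 distinct TSS. Its genes were not counted, so no list is set against the share of all genes. The background for direction is the 79% of all promoter intervals that were gained. Cytokines, chemokines and their receptors had the most, with 10 of 73 genes, 9 gained and 1 lost, and a median difference over their 12 intervals of 1.18. The median was 1.05 over all promoter intervals and 1.14 over the table. The list thus stood close to the background in the size of its differences. Il16, Il2rb and Il1f6, described above, are not on this list, and the interval at Il16 was lost.

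Within it, the chemokine genes Cxcl10, Ccl9 and Ccl5 followed Cxcl2 and Ccl4. Cxcl10, an interferon-induced chemokine, went from 9.44 to 44.8 reads (2.25) in an interval 2732 bp downstream of its TSS, which lies in an intron of the neighbouring gene Art3. Ccl9 rose from 47.4 to 123 reads (1.37) and Ccl5 from 20.02 to 50.9 (1.35). Tnfrsf9, the costimulatory receptor 4-1BB, had 2 gained intervals, with 42.4 and 98.7 reads (1.22) downstream and 46.7 and 88.3 reads (0.92) upstream of a TSS. The first of these is the one with κB motifs shown above.

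Of the other members, Il10, the anti-inflammatory cytokine, Il1b, the inflammatory cytokine IL-1β, and Pdgfb, a growth factor, had differences of 1.15, 1.13 and 0.72. The Il1b interval covered the TSS and went from 36.4 to 79.4 reads. Cx3cr1, the receptor of the chemokine fractalkine and a marker of resident macrophages and microglia, was the lost member, with 236 and 158 reads over its TSS (-0.57).

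NF-κB subunits, inhibitors and signalling genes had 6 promoter intervals at 4 of 44 genes, with a median difference of 1.33. All 6 were gained, against 79% of all promoter intervals, and are too few to be set apart from that share. Nfkb1 had 3 of them. Beside the interval at 34.1 reads described above, the one over its TSS rose from 155 to 233 reads (0.59), and another, 2538 bp downstream of the internal TSS, from 14.3 to 42.8 (1.58). The last of these is largely made of short repeats rich in G and T, in which reads are harder to place. A further 17 gained and no lost distal intervals had Nfkb1 as their nearest gene, with differences from 1.07 to 2.89. Of all distal intervals, 72.5% were gained. Irak3, an inhibitor of Toll-like receptor signalling, rose from 34.1 to 91.9 reads (1.43). Zc3h12c, of the Regnase family of RNA-degrading proteins, and Traf1, an adaptor of TNF receptors, differed by 1.24 and 0.55. Of these 6 intervals, 2 held a κB motif, both in Nfkb1.

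AP-1 and related bZIP factor genes had 5 of 37 genes, 4 gained and 1 lost, with a median of 1.24. Over the TSS of Maff, a small MAF protein, reads rose from 24.7 to 66.0 (1.42). Over the TSS of Bach2, a repressor that pairs with MAF proteins, they rose from 24.7 to 60.4 (1.29). Fosl2, the Fos family gene Fra-2, rose from 58.4 to 137 (1.24) and Atf3, a stress-induced repressor, from 56.7 to 102 (0.84). Atf6, a sensor of endoplasmic reticulum stress, had the lost interval, with 87.0 and 45.2 reads (-0.94). Distal intervals were gained and none lost at Fosl2 (6) and Atf3 (3), while Bach2 had 2 gained and 1 lost.

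Other immediate early and stress-response genes had 5 intervals at 4 of 45 genes, with a median of 0.81, below that of all promoter intervals. All 5 were gained, again too few to be set apart from the 79% of all promoter intervals. The genes were Plaur (the urokinase receptor), Csrnp1, Nr4a1 (the nuclear receptor Nur77) and Arc. At Arc, known for its role at synapses, reads went from 171 to 263 (0.62), and at Nr4a1 from 113 to 180 (0.67). Both of these intervals lay within 100 bp upstream of a TSS, started well above the gained median and hold a GC box. MAP kinase genes had Dusp2 and Dusp8, both MAP kinase phosphatases, among 50, with 3 gained intervals. Dusp8 went from 120 to 215 reads over its TSS (0.84).

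Surface immune receptors were the list with more lost than gained intervals. Of 80 genes, 5 had a promoter interval, 2 gained and 3 lost, and the median over 6 intervals was -0.78. Lilr4b, an inhibitory receptor of the LILR family, rose from 43.2 to 109 reads (1.34) and Cd80, a ligand that costimulates T cells, from 37.4 to 92.2 (1.30). Beside Siglech, P2ry12, the ADP receptor of microglia, had 2 lost intervals, with 89.8 and 41.6 reads (-1.11) and with 135 and 72.1 (-0.90). Over the TSS of Fcgr1 reads went from 270 to 172 (-0.65), while its 1 distal interval was gained, from 52.4 to 98.4 (0.91).

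Adhesion and cytoskeleton genes had 3 of 74, with Itgax and Itgb2, the CD11c and CD18 integrin chains, gained by 1.10 and 1.06. Actb, which encodes β-actin, was lost by -0.51, from 275 to 193 reads upstream of its TSS. Cell death and cell cycle genes had 2 of 61. Fas, the death receptor, was gained by 0.97 from 109 to 214 reads, and Bmf, a BH3-only protein that promotes apoptosis, was lost by -0.71 from 163 to 99.5.

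On 3 further lists at most 1 gene had a promoter interval. Without the share over all annotated genes, counts this small cannot be read as a trait of these lists. Of 129 chromatin enzymes and remodelers, Chd7, a chromatin remodeler, alone had one, with 68.8 and 129 reads (0.91), while 21 of these genes had a distal interval. Of 76 myeloid transcription regulators, Runx2 alone had one, with 13.7 and 51.5 reads (1.91), while 31 had a distal interval. None of the 44 genes of sterol synthesis, uptake and efflux had a promoter interval, and 12 had a distal one. On these lists, as in the table as a whole, intervals lay mainly beyond 3 kb from a TSS.

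**Figure D2:**
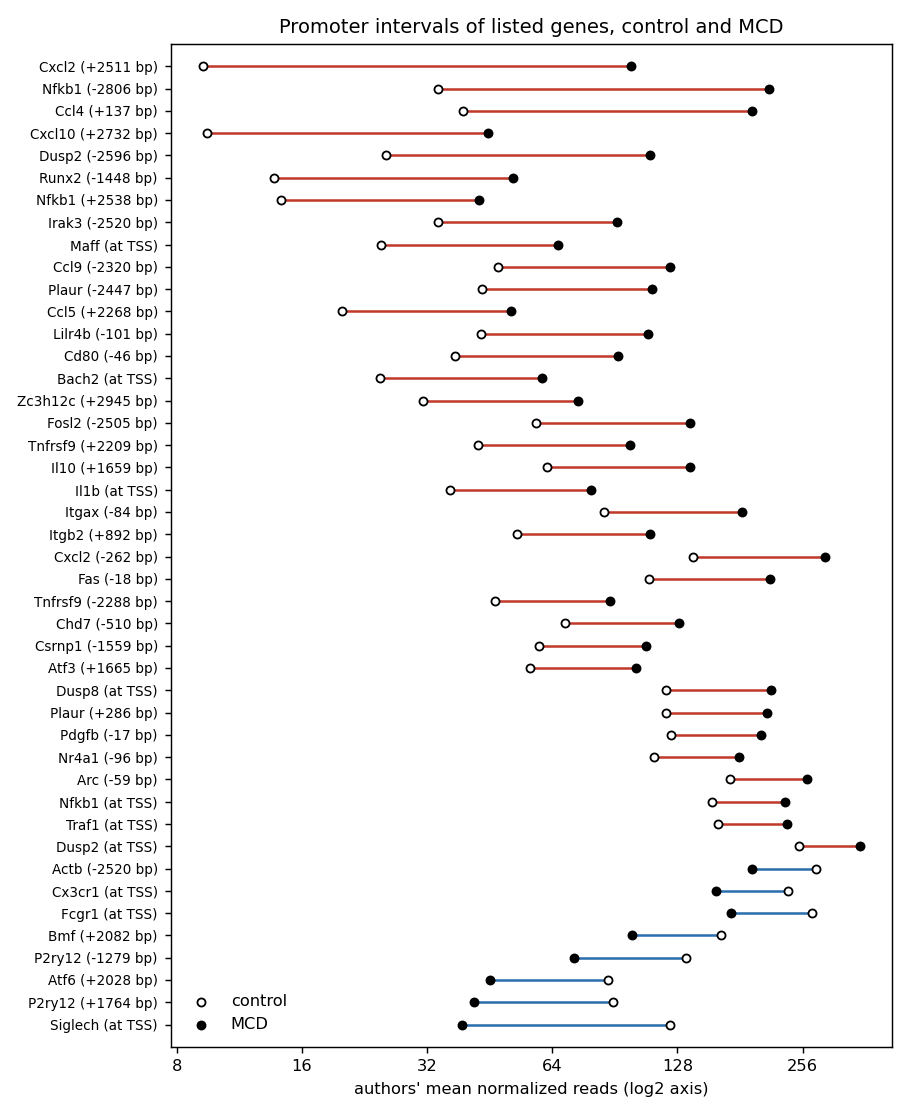
Each row is 1 of the 44 promoter intervals of listed genes, with its position relative to the nearest TSS in bp (negative is upstream). Open circles are the authors' control means and filled circles their MCD means in normalized reads on a log2 axis, joined in red where gained and in blue where lost. Low control means go with long lines, as at Cxcl2 from 9.27 to 98.8 reads. The 8 lost intervals, in which control is the higher mean by definition, all start above 64 reads.

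Outside these lists, further genes of myeloid and inflammatory function had promoter intervals. They were chosen after their values were seen. Acod1, the enzyme that makes itaconate in activated macrophages, rose over its TSS from 52.3 to 174 reads (1.73). Mmp9, a secreted gelatinase, rose from 15.3 to 45.2 (1.56). Ptpn22, a phosphatase of immune receptor signalling, rose from 43.9 to 130 (1.56), and Olr1, a receptor for oxidised LDL, rose over its TSS from 50.0 to 117 (1.23). F3, tissue factor of coagulation, rose from 83.0 to 138 (0.73) and Jak2, a kinase of cytokine receptors, from 88.6 to 152 (0.78).

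Lost intervals outside the lists, again chosen after their values were seen, included genes of resting macrophages and other myeloid cells. Over the TSS of Cd300c, a paired immune receptor, reads fell from 94.4 to 45.3 (-1.06). At Ctss, which encodes the lysosomal protease cathepsin S, they fell from 114 to 61.6 (-0.89). At Lyz2 they fell from 212 to 138 (-0.62). Pik3cd, the leukocyte PI3Kδ gene, fell from 212 to 138 as well (-0.62). All 4 kept at least 45.3 reads in MCD. Pik3cd also had 2 distal intervals, both gained (1.23 and 1.35), while the 1 distal interval of Lyz2 was lost (-1.02).

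More than 1 promoter interval was found at 15 genes, 10 with gained intervals alone, 3 with lost intervals alone and 2, Olfr211 and Resf1, with both. In 7 of the 10 gained genes, the interval nearest to a TSS had the higher control mean and the smaller difference. At Ece1, Matk and Tnfrsf9 it had the lower control mean and the larger difference. Fam83g, counted among the 7, had close values (12.1 and 11.1 reads in control, differences of 1.84 and 1.88). At Dusp2, the interval over the TSS went from 251 to 351 reads (0.49) and the one 2596 bp upstream from 25.4 to 110 (2.11). At Cxcl2, the interval 262 bp upstream went from 139 to 289 reads (1.06) and the one 2511 bp downstream from 9.27 to 98.8 (3.41). At Plaur, the interval 286 bp downstream went from 120 to 210 reads (0.81) and the one 2447 bp upstream from 43.4 to 111 (1.35). At Dusp2, Cxcl2 and Plaur the interval nearer to the TSS thus had more reads in control and changed less than the more distant one. Level and difference were related in this way over all gained intervals, whatever their position.

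Among the 3 lost genes, the interval nearest to a TSS had the higher control mean and the smaller difference at Cst3 and P2ry12, and the reverse held at Bex6. At Cst3, reads went from 332 to 237 over the TSS (-0.49) and from 199.5 to 83.5 in an interval 1756 bp upstream (-1.26), and 3 lost distal intervals had differences from -1.58 to -1.43. At Bex6, they went from 112 to 57.0 in an interval 37 bp from the TSS (-0.98) and from 200.01 to 131 in one 2992 bp away (-0.61). At Resf1, a gene that represses endogenous retroviruses, an interval 1363 bp upstream of one TSS was gained, from 27.1 to 61.1 reads (1.17), and one 1284 bp upstream of another was lost, from 99.4 to 55.4 (-0.84). Of the 290 genes with a gained promoter interval, 92 also had a distal interval, in the same direction alone at 80, in the other direction alone at 10 and in both at 2. Of the 77 genes with a lost one, 21 had a distal interval, in the same direction alone at 12, in the other alone at 8 and in both at 1. As background, 72.5% of all distal intervals were gained and 27.5% were lost.

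By position, gained and lost promoter intervals had nearly the same median distance to a TSS, 1181 and 1182 bp. A TSS was covered by 48 gained (15.9%) and 20 lost (25%) intervals, and with the TSS of all annotated transcripts the shares were 13.5% and 15.6%. Of the other gained intervals, 140 lay upstream and 113 downstream, and of the lost, 31 and 29. By annotation, the gained intervals that did not cover a TSS lay in introns (135), in intergenic sequence (99) and in exons (19), and the lost ones in introns (27), intergenic sequence (23) and exons (10).

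The level and the size of the difference followed the distance. The 48 gained intervals over a TSS had medians of 81.1 reads in control and 155 in MCD and a median difference of 0.88. The 95 within 1 kb that did not cover one had a median difference of 1.19, with 1.19 upstream and 1.20 downstream. The 158 from 1 to 3 kb had medians of 37.0 and 93.7 reads and a difference of 1.36. The gained intervals over a TSS were thus the most open in control and the least changed. By control level alone, gained intervals of 64 reads or more had a median difference of 0.77 and those from 16 to 64 reads 1.34. Position was not separated from level.

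Lost intervals were ordered in the same way, and level was again not separated from position. The 20 over a TSS had medians of 165 and 98.2 reads and a difference of -0.70, the 17 within 1 kb a difference of -0.86, and the 43 from 1 to 3 kb medians of 124 and 60.3 reads and a difference of -0.97. At the 3 kb limit itself, the members nearest to it were at Bex6 (2992 bp, -0.61), Icos (2983 bp, -1.17) and Folr2 (2977 bp, 1.58). The nearest intervals left out were at Mmp15 (3017 bp, -1.07), Plet1 (3023 bp, 1.13) and Fnbp1 (3037 bp, -1.17).

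**Figure D3:**
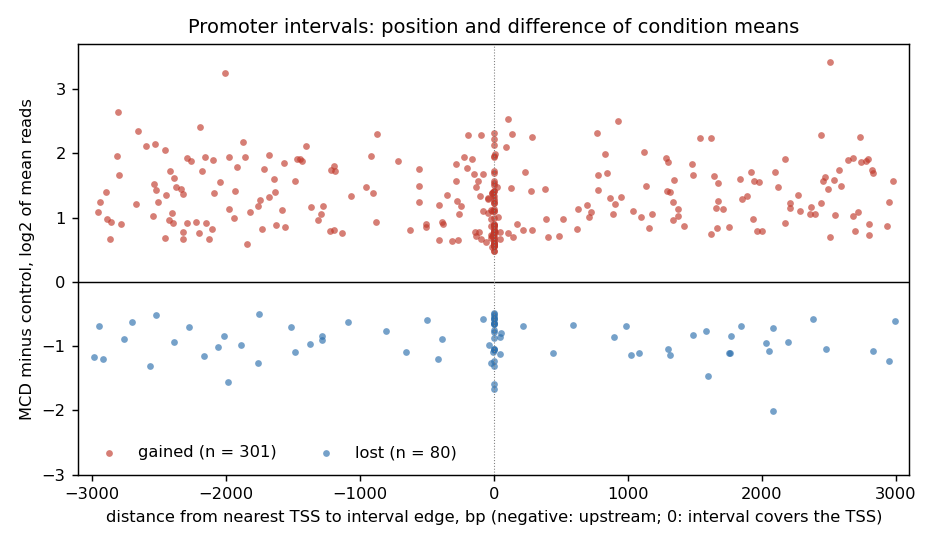
Each point is 1 promoter interval, with the distance in bp from the nearest TSS to its edge on the x axis (0 where it covers the TSS) and the MCD minus control difference of the log2 means on the y axis. The 301 gained (red) and 80 lost (blue) intervals spread over the whole 3 kb on both sides, and the points at 0 bp reach closest to the zero line.

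Base composition set gained intervals over a TSS apart from lost ones. The gained ones had a median GC content of 69.9% and 18.5 CpG in 201 bases, and the lost ones 51.2% and 2. Windows of the same width centred on each of 42191 TSS of the annotation had medians of 59.2% and 10 CpG. Over a TSS, 62.5% of gained intervals had at least 10 CpG, against 51.8% of the TSS windows. Of the 20 lost intervals over a TSS, 1 reached that number (5.00%).

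With distance this difference became small. Among gained intervals, 27.4% of those within 1 kb that did not cover a TSS and 3.16% of those from 1 to 3 kb had at least 10 CpG. Among lost intervals the values were 5.88% and 4.65%. Distal intervals reached that number in 1.93% of cases when gained and 0.637% when lost.

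A search of the 201 reference bases of every interval, on either strand, was made for 18 motifs. The TSS windows are centred on a TSS and have a median GC content of 59.2%, against 51.2% in gained and 46.8% in lost promoter intervals. Motif shares in these windows are therefore not matched to the intervals in composition or position. AP-1 (TGACTCA) was found in 110 of the 301 gained promoter intervals (36.5%) and in 0 of the 80 lost ones. It was present in 2.71% of the TSS windows. Distal intervals showed the same contrast, at 47.0% when gained and 2.12% when lost. The gained promoter intervals held the motif less often than the distal gained ones, and the distance classes place that deficit near the TSS.

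Over a TSS, 20.8% of gained intervals had an AP-1 motif, within 1 kb 26.3%, and from 1 to 3 kb 47.5%, a share like that of the distal gained intervals. Within 1 kb, the motif was in 36.8% of the gained intervals upstream and in 10.5% of those downstream of the TSS. From 1 to 3 kb the 2 sides were close, at 49.4% and 45.3%. At least 2 AP-1 motifs were found in 23 gained intervals, as in the Ccl5 sequence above.

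The κB motif, searched by its degenerate 10-base consensus, was in 40 gained (13.3%) and 4 lost (5.00%) promoter intervals and in 3.24% of the TSS windows. It was in 8.12% of the distal gained and 2.34% of the distal lost intervals. Unlike AP-1, its share among gained intervals did not follow the distance, with 12.5% over a TSS, 14.7% within 1 kb and 12.7% from 1 to 3 kb. AP-1 and κB occurred together in 11 gained intervals, and 162 gained intervals had neither.

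Within the gained intervals, AP-1 and κB motifs lay toward the middle. Of 134 AP-1 matches, 66.4% were centred within 50 bp of the interval's centre, as were 65.4% of 52 κB matches and 52.3% of 65 GC box matches. These inner bases make up 50.2% of an interval. Overlapping matches, on either strand, were counted separately where their first bases differed. The median difference was 1.32 in gained intervals with AP-1 and 1.18 in those without, and 1.39 with κB and 1.23 without.

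The GC box (GGGCGGG) was in 47 gained (15.6%) and 2 lost (2.50%) promoter intervals, against 27.1% of the TSS windows and 4.14% of the distal gained intervals. Among gained intervals it was in 45.8% over a TSS, 21.1% within 1 kb and 3.16% from 1 to 3 kb, the reverse of the order for AP-1. Gained intervals with a GC box had a median of 99.9 reads in control and a difference of 0.78, and those without one 36.6 reads and 1.32. Over all gained intervals the difference fell as the control level rose (r = -0.87), and the motif was not separated from level. A GC box occurred together with AP-1 in 7 and with κB in 9 gained intervals, among them the interval over the Nfkb1 TSS. The cyclic AMP response element (CRE, TGACGTCA) was in 7 gained (2.33%) and 0 lost promoter intervals and in 1.81% of the TSS windows. Those 7 include Chd7, Bach2 and Dusp8, and none also held the AP-1 motif.

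**Figure D4:**
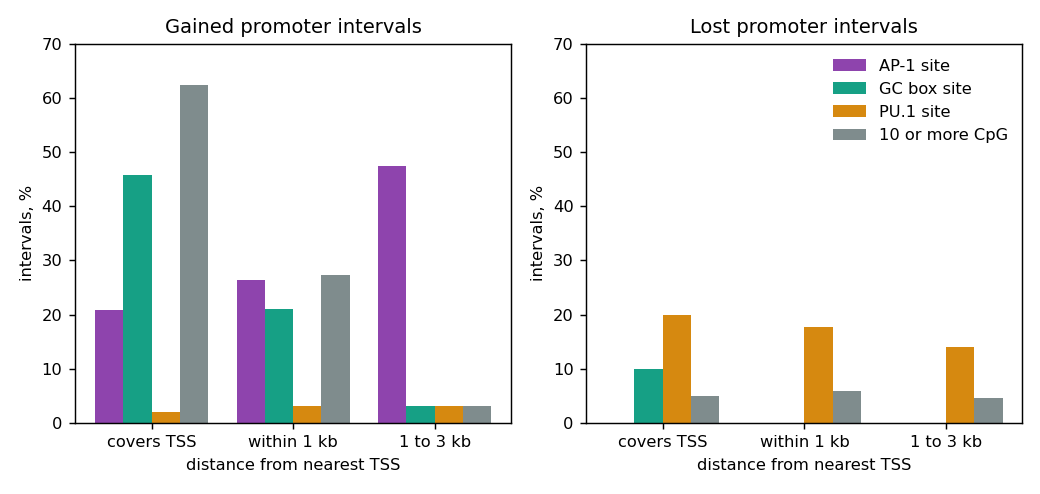
Bars give the percentage of gained (left) and lost (right) promoter intervals with an AP-1, GC box or PU.1 motif or with at least 10 CpG, by distance from the nearest TSS (over it, within 1 kb, 1 to 3 kb), for 48, 95 and 158 gained and 20, 17 and 43 lost intervals. In the gained intervals AP-1 rises with distance from 20.8% to 47.5% while the GC box falls from 45.8% to 3.16%, and the lost intervals have no AP-1 bar.

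The lost promoter intervals held motifs of myeloid factors more often than the gained ones. PU.1 (GAGGAAGT) was in 13 of 80 (16.2%) and in 9 of 301 gained (2.99%), against 2.14% of the TSS windows. Its shorter form GAGGAA, which every PU.1 match contains, was in 52.5% of lost and 25.2% of gained promoter intervals and 19.8% of the TSS windows. C/EBP (TTGCNNAA) was in 20% of lost, 9.97% of gained and 5.48% of TSS windows. PU.1 was in 15.9% of distal lost and 4.86% of distal gained intervals, and C/EBP in 14.8% and 11.4%. Distal and promoter intervals thus had a similar contrast for PU.1, and for C/EBP the distal shares lay closer together. The PU.1 matches of lost promoter intervals did not lie toward the middle. Of 15, 40% were centred within 50 bp of the interval's centre, against 62.8% of 164 in distal lost intervals. The ISRE core was in 5 lost (6.25%) and 8 gained (2.66%) promoter intervals and in 1.94% of the TSS windows. Away from promoters its shares were close, at 2.97% of lost and 2.41% of gained intervals.

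The remaining motifs are core promoter elements and sites of other factors. CCAAT was in 28.8% of lost and 20.6% of gained intervals (25.5% of the TSS windows), the TATA box (TATAAA) in 12.5% and 6.98% (7.2%), the STAT site (TTCNNNGAA) in 8.75% and 4.32% (4.85%) and the E-box (CACGTG) in 5.00% and 5.32% (5.10%). YY1 (AANATGGC) was in 2.50% and 3.32% (5.82%). EGR (GCGTGGGCG) was in 7 gained (2.33%) and 0 lost intervals (0.630%). The promoter ETS site (CCGGAAGT), NRF1, the CArG box of SRF, CTCF and the sterol response element (TCACCCCAC) were each in at most 1.33% of gained and 1.25% of lost intervals. With 80 lost intervals, 1 interval is 1.25% of them, and shares of this size rest on single sequences.

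**Figure D5:**
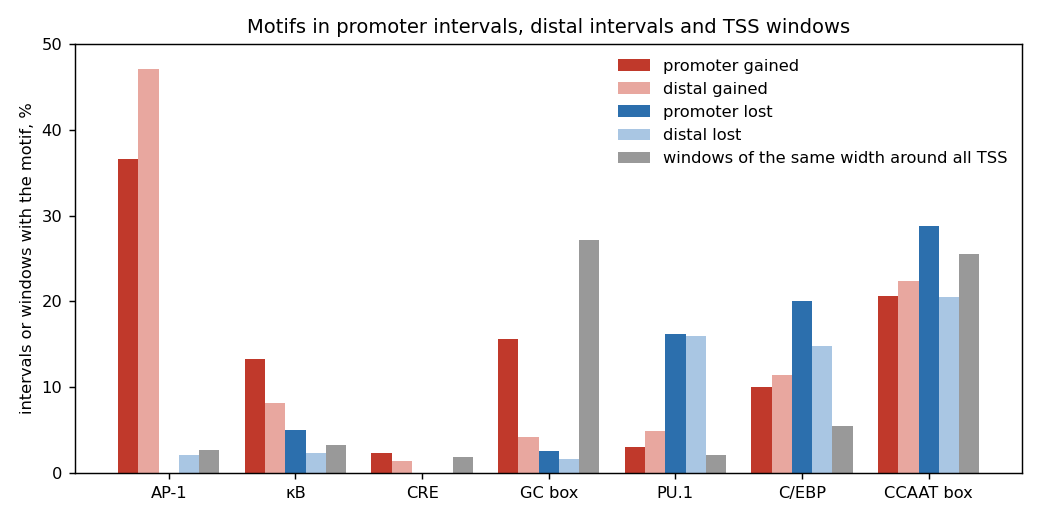
Bars give the percentage of sequences that hold each of 7 motifs, for promoter intervals (dark) and distal intervals (light) that were gained (red) or lost (blue) and for 42191 windows of 201 bases around annotated TSS (grey). AP-1 and κB bars are highest in the gained intervals, PU.1 and C/EBP bars in the lost ones, and the GC box bar of the gained promoter intervals (15.6%) lies between that of the distal gained intervals and that of the TSS windows.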

How the data were processed

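ATAC-seq was performed by the authors on 2 control and 2 MCD-treated samples. Per the labels, processing used FastQC, cutadapt 2.6, Bowtie2 2.4.4, MACS3 3.0.0, deepTools 3.5.1, DiffBind and R 4.0.2 on mm10 (GRCm38); the study's methods name MACS2 and Picard. Normalization, Tn5 offset and pooling for peak calling are not given in the sources used here. The deposited table holds, for each interval, condition means as log2 of normalized reads, which were used. The authors' comparison columns (fold, p-value, FDR) were not used beyond seeing that no row has an FDR above 0.05, so unchanged intervals were not analysed. There are no values per sample, so the planned model across samples could not be run. The labels state a sequencing depth aimed at for every library, but the reads behind each mean are not in the table.

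Differences are MCD minus control of the log2 means, and reads are 2 raised to each log2 mean. TSS came from 45852 GENCODE basic transcripts with an Entrez identifier. Sequences were read from GRCm38 with pysam 0.24.0 (Python 3.11.15, numpy 2.4.6, pandas 2.3.3). The search was tested on simulated data.

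Members, lists and motifs were chosen with earlier results of these data known. Named genes were the 12 most gained and 8 most lost intervals by difference, the 5 of each with the highest control mean, up to 6 per gene list, up to 6 with several intervals, and 3 on either side of the distance limit; others are marked as chosen later. Alternatives were another promoter width, other TSS sets, the interval midpoint, a minimum level, a minimum difference and other motif spellings.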

Additional observations from a re-analysis of the deposited data

How the results depend on the processing

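Over 11 results and 10 alternatives, 77 values were recomputed. Direction could not change, since counts and shares have no sign and the medians are over intervals chosen by the sign of the difference. Of the values, 53 stayed near the reported one and 24 moved. Near was judged by a fixed factor for counts, and by a 95% interval over promoter intervals for shares and medians. With a promoter of 1 kb there were 143 gained and 37 lost intervals, 93 with a difference of at least 1, a median gained difference of 1.11, AP-1 in 24.5% of gained intervals and a TSS covered by 33.6% of gained and 54.1% of lost ones. With the TSS of all annotated transcripts there were 683 gained and 224 lost intervals, 587 with a difference of at least 1, AP-1 in 43.9% of gained intervals (and in 4 of the lost), and a TSS covered by 15.6% of lost ones. With the comprehensive annotation, added after seeing the data, these were 490, 156, 409 and 42.4% (and AP-1 in 2 lost intervals). Differences of at least 1 alone left 200 gained and 33 lost intervals, 85.8% gained, with medians of 1.501 and -1.14 and a TSS covered by 10.0% of gained ones. Any central base raised AP-1 to 43.2%, and the shorter PU box raised the PU.1 share of lost intervals to 52.5%. Wider sets of TSS and narrower limits change which intervals are counted by construction.

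No paired analysis was possible because the table holds condition means and no value per sample. For the same reason no replicate could be left out and no other scaling could be tried. The level behind each mean limits precision most where control means are under 16 reads, as in 52 gained intervals.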
